A study of Mus musculus with 9 samples.

Results

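The Wnt ligands, their Frizzled receptors and secreted inhibitors of Wnt signaling were examined for PBRM1 and BRG1 ChIC-Seq peaks in oviductal smooth muscle cells. The genes were chosen by symbol alone: every protein-coding gene of the GENCODE M21 mouse annotation named Wnt, Fzd, Sfrp or Dkk followed by a number. This gave 37 of 21938 protein-coding genes, namely 19 Wnt ligands, 10 Frizzled receptors, 4 secreted Frizzled-related proteins (sFRP) and 4 Dickkopf proteins. Primary muscle cells were prepared from the oviducts of wild-type mice 8 to 12 weeks old on D2 (day 2) of pregnancy after mating with stud males, and were plated for some hours before fixation. In ChIC-Seq, micrococcal nuclease tethered through protein A to an antibody cuts fixed chromatin where the antibody binds, and the freed fragments are sequenced. The series holds 9 samples, 3 each for PBRM1, BRG1 and IgG, and the IgG samples were not analysed here. All 6 libraries used share genotype, day and cell preparation and differ in the antibody. The labels do not say whether the 3 replicates of an antibody came from separate animals, so p-values measure only the spread between libraries, which may be technical.

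SWI/SNF complexes use ATP to move nucleosomes. BRG1 is one of their ATPases, and PBRM1 (BAF180) is the subunit by which the variant called PBAF is recognized. Wnt proteins are secreted, lipid-modified ligands that bind Frizzled receptors on the cell surface. Together with the co-receptors LRP5 and LRP6 they stabilize β-catenin, and through other partners they control cell polarity and calcium. The sFRPs bind Wnts outside the cell, and Dickkopf proteins block the LRP co-receptors. In the female reproductive tract, Wnt signals from the Müllerian duct onward pattern the oviduct and uterus and shape their muscle layer.

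A promoter peak was a peak whose summit lay within 2 kb of the start of any annotated transcript of the gene. The 6 replicate lists rested on 14284532 to 23992352 fragments and held 31970 to 39467 peaks. Levels are given as the pileup, the number of fragments stacked at the summit, per 1000000 fragments of the library (FPM). The lowest pileup called was 0.333 to 0.420 FPM in the replicate lists, and 0.210 (PBRM1) and 0.243 (BRG1) FPM in the lists that the authors called on pooled replicates, so weaker sites could be called only there. A peak also had to rise above the signal around it in the same library (the local background), so these values set no fixed limit. *Dkk3* had a pooled BRG1 peak of 1.13 FPM without a peak in any replicate list. A gene with no peak was therefore not called at this depth and background. It was not shown to have weak signal or to be free of either protein. The cells were analysed in bulk, so occupancy in fewer cells and weaker occupancy in every cell cannot be told apart. Of 10 smooth muscle marker genes, *Acta2*, *Tagln*, *Smtn* and *Mylk* had a promoter peak in all 6 lists, a share of 40.0% against 41.4% of all protein-coding genes. Markers of other cells had such support at 0 of 9 epithelial, 0 of 5 fibroblast, 1 of 4 endothelial (*Tek*) and 0 of 4 leukocyte genes. A peak in 1 to 5 lists was found at 5 smooth muscle, 4 epithelial, 4 fibroblast, 2 endothelial and 0 leukocyte genes. A peak at a marker reports ChIC-Seq signal, called without a control, and not expression. *Cnn1*, a smooth muscle gene, had no promoter peak in any list, and *Myh11* and *Actg2* each had one in 1 list.

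Full replicate support among these genes was found at receptors and at no ligand or inhibitor. Promoter peaks in all 6 lists were found at 7 of the 37 genes (18.9%), against 41.4% of all protein-coding genes. All 7 were Frizzled receptors, 7 of 10 in that class, while none of the 19 Wnt, 4 sFRP or 4 Dickkopf genes had a peak in every list. A further 23 genes (62.2%) had a promoter peak in 1 to 5 lists, against 23.7% of all protein-coding genes; they were 15 Wnt, 3 Frizzled, all 4 sFRP and 1 Dickkopf gene. No replicate list held a promoter peak at 7 genes (18.9%), against 34.9% of all protein-coding genes. These were *Wnt7a*, *Wnt7b*, *Wnt8a*, *Wnt10b*, *Dkk1*, *Dkk3* and *Dkk4*. Most ligand and sFRP genes thus had a peak in some lists but not in others, and most Dickkopf genes had none. *Fzd2*, *Wnt6*, *Wnt16* and *Sfrp1* each lacked a peak in 1 list only, so 1 call kept them from full support. These shares describe the lists, and no test of the classes was made.

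**Figure D1:**
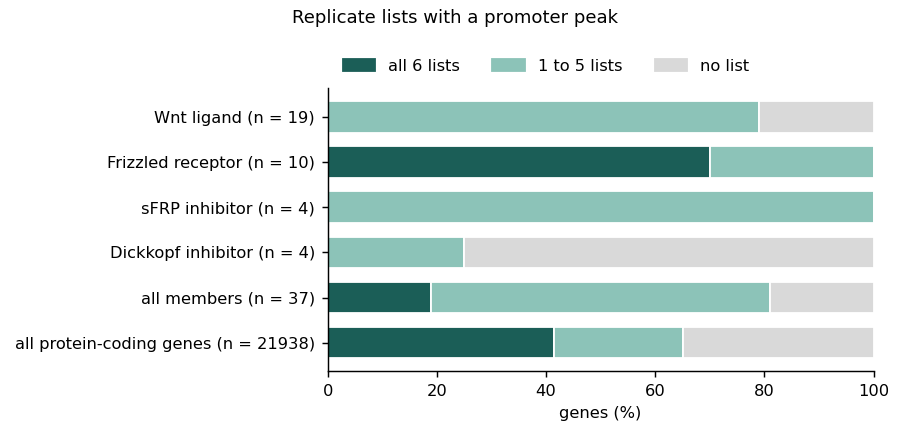
Horizontal bars give the share of genes (%, x axis) in each class with a promoter peak in all 6 replicate lists (dark), in 1 to 5 (light) or in none (grey). Frizzled receptors reach 70.0% in all 6 lists and the other 3 classes 0, with all members at 18.9% and all protein-coding genes at 41.4%.

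The number of these genes with a promoter peak was 21, 13 and 16 in PBRM1 replicates 1, 2 and 3, and 21, 16 and 20 in the BRG1 replicates. PBRM1 replicate 2, which also held the fewest peaks, was the lowest, and the antibodies overlapped. The mean was 16.7 ± 4.04 genes for PBRM1 and 19.0 ± 2.65 for BRG1 (SD, n = 3 each), a difference of 2.33 genes, smaller than the replicate SD of either antibody (exact permutation test, two-sided, p = 0.7, where 0.1 is the smallest p possible). Left out, PBRM1 replicate 2 brought the difference to 0.50 genes and PBRM1 replicate 1 to 4.5. Counts of ligand and sFRP genes varied more within an antibody than counts of receptors. Wnt genes with a peak numbered 10, 5 and 6 in the PBRM1 lists and 9, 5 and 8 in the BRG1 lists. The sFRP genes numbered 3, 0 and 1 and then 4, 2 and 2. Frizzled genes numbered 7, 8 and 9 and then 8, 8 and 9. Dickkopf genes numbered 1, 0 and 0 and then 0, 1 and 1. As background, 53.6%, 50.8% and 51.8% of all protein-coding genes had a promoter peak in the PBRM1 lists and 57.7%, 54.7% and 56.9% in the BRG1 lists.

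**Figure D2:**
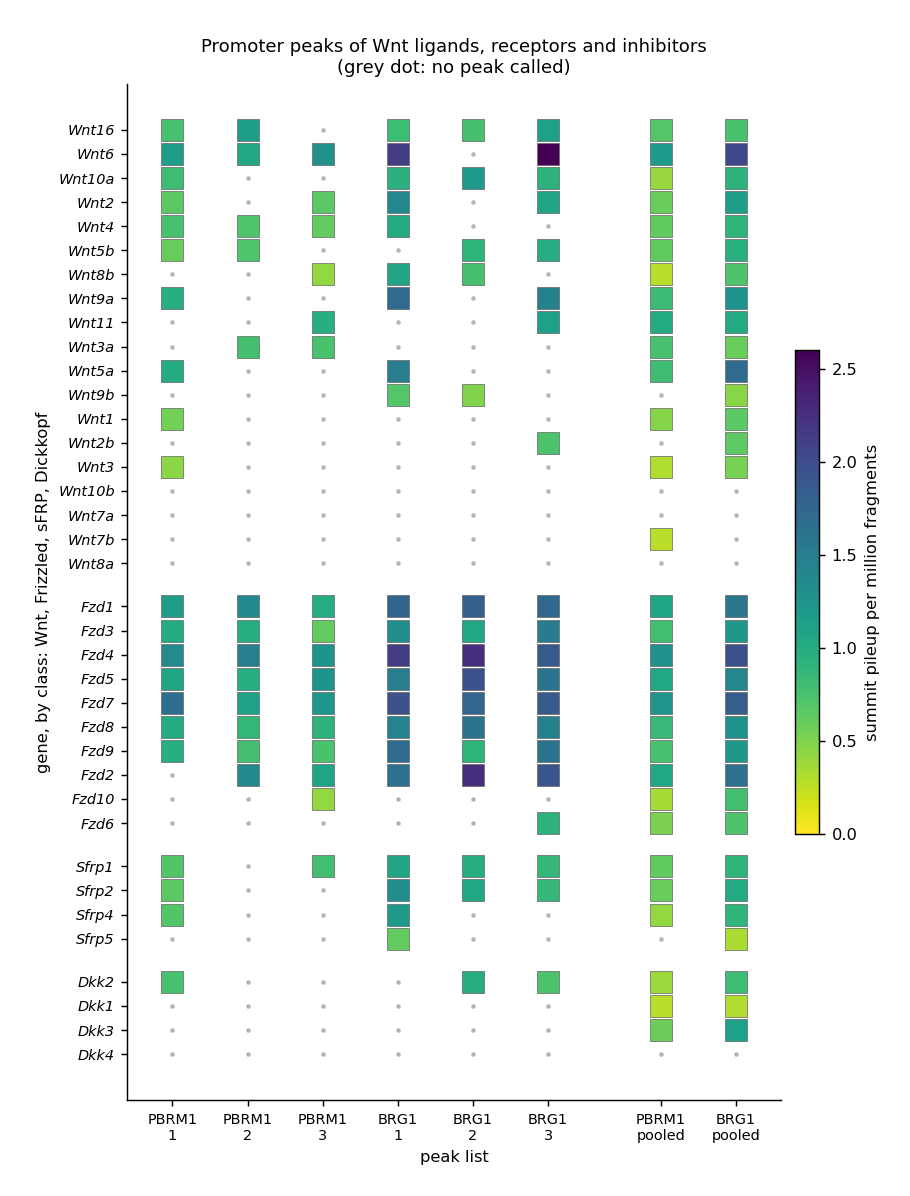
Each row is a gene, grouped by class, and each column a peak list (6 replicates, then the pooled lists of each antibody); the colour of a square is the pileup (FPM) at the tallest promoter summit and a grey dot means that no peak was called. The Frizzled block is nearly filled, and the Wnt and inhibitor blocks are filled in part and more completely in the pooled columns.

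The Frizzled receptors are membrane proteins that bind Wnts through a cysteine-rich outer domain. *Fzd4*, a receptor for several Wnts and for Norrin, had the tallest promoter peak of the family on average over the 6 lists. Its pileup was 1.36, 1.49 and 1.25 FPM in PBRM1 replicates 1 to 3 and 2.14, 2.24 and 1.86 FPM in BRG1 replicates 1 to 3. At *Fzd7*, a receptor known in canonical Wnt signaling and stem cells, the values were 1.67, 1.10 and 1.21 for PBRM1 and 1.95, 1.75 and 1.86 for BRG1. For both genes the lowest BRG1 library lay above the highest PBRM1 library. *Fzd4* shares its promoter region with *Tmem135*, which starts within 2 kb of the same summits, so the peak cannot be assigned to either gene.

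*Fzd1*, close to *Fzd7* in sequence family, had 1.16, 1.38 and 1.00 FPM for PBRM1 and 1.76, 1.82 and 1.73 for BRG1. *Fzd5*, a receptor for WNT5A and WNT7A among others, had 1.06, 0.993 and 1.25 for PBRM1 and 1.51, 1.96 and 1.60 for BRG1, and its promoter is shared with the annotated gene *Gm38058*. *Fzd8*, the nearest relative of *Fzd5*, had 1.01, 0.883 and 0.917 for PBRM1 and 1.45, 1.61 and 1.46 for BRG1. The antibodies did not overlap at any of these 3 promoters. At *Fzd9*, PBRM1 gave 0.960, 0.772 and 0.750 and BRG1 gave 1.70, 0.910 and 1.60, so BRG1 replicate 2 fell within the PBRM1 range. At *Fzd3*, a polarity receptor known from axon guidance, PBRM1 gave 1.01, 0.993 and 0.625 and BRG1 gave 1.32, 1.05 and 1.53, again without overlap.

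Such separations were frequent in the libraries as a whole. Over the 12830 merged regions that every list shared, 57.6% had BRG1 and PBRM1 values that did not overlap, and the median region was 0.49 higher for BRG1 on the log2 scale. After each library was centred on its median region, the 7 Frizzled promoters differed between antibodies by 0.04 to 0.25 (log2, BRG1 minus PBRM1; limma, adjusted p = 0.536 to 0.924).

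**Figure D3:**
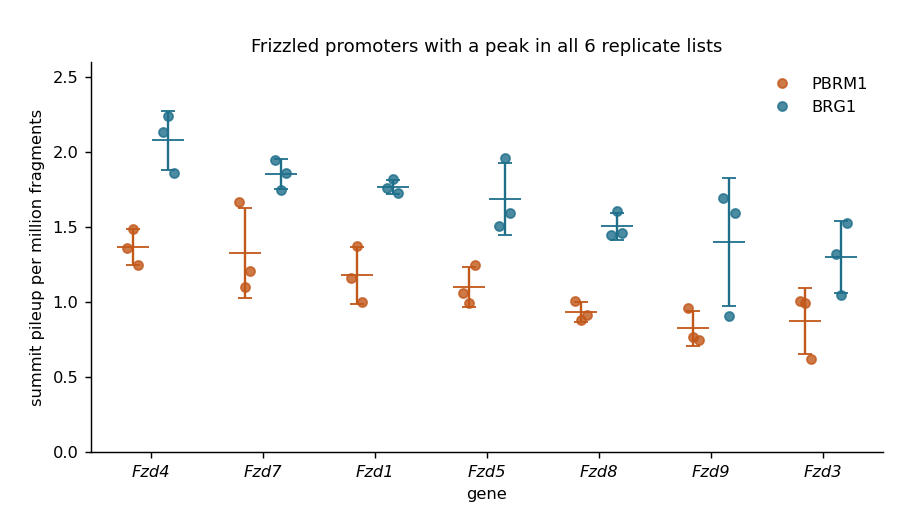
Points are replicate libraries and bars the mean ± SD (n = 3) of the pileup (FPM) (y axis) at the 7 Frizzled promoters with a peak in all 6 lists (x axis, by falling mean), PBRM1 in orange and BRG1 in blue. Values run from 0.625 to 2.24 FPM, and the antibodies overlap at *Fzd9* only.

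Set among the 9092 protein-coding genes with a promoter peak in all 6 lists, the Frizzled promoters were of middle to low height. Their mean pileup over the 6 lists ran from 1.72 FPM at *Fzd4* to 1.09 at *Fzd3*, against a median of 1.63. *Fzd4* stood at percentile 56.4, *Fzd7* at 47.0, *Fzd1* at 38.2, *Fzd5* at 32.0, *Fzd8* at 19.0, *Fzd9* at 12.8 and *Fzd3* at 11.4. Height and contrast with the surroundings did not rank these genes alike. The fold enrichment, which is the pileup over the local background of the same library, was 5.39 to 6.70 at *Fzd4* and 4.13 to 6.31 at *Fzd9*, one of the lower peaks, but 2.67 to 3.80 at *Fzd7*. The local background at *Fzd7* was 4.50 to 6.46 times the genome-wide level, whereas at *Fzd9* it was 1.56 to 2.75 times. Around *Fzd7* both antibodies therefore gave raised signal over a wider stretch, with a modest summit on top.

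The remaining 3 Frizzled genes had partial support. *Fzd2* lacked a peak in PBRM1 replicate 1 only and was otherwise tall, with 1.38 and 1.08 FPM in the other PBRM1 lists and 1.64, 2.24 and 1.93 in the BRG1 lists. *Fzd6*, a polarity receptor, had a peak of 0.931 FPM in BRG1 replicate 3 alone. *Fzd10* had one of 0.417 FPM in PBRM1 replicate 3 alone, 1114 bp upstream of its start in a region that also holds starts of noncoding genes. All 10 Frizzled genes had a promoter peak in both pooled lists, where *Fzd6* and *Fzd10* reached 0.730 and 0.774 FPM for BRG1.

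The tallest summits at the Frizzled promoters with 6 lists lay close to the start, from 580 bp upstream to 183 bp downstream. Upstream sequence of the 3 whose tallest summit was in intergenic DNA is shown because the peaks of all 6 lists overlap it. Not every summit lies in it: the PBRM1 summits at *Fzd3* and that of BRG1 replicate 2 at *Fzd9* are further upstream, and that of PBRM1 replicate 2 at *Fzd7* is closer to the start. It is given 5′ to 3′ on the strand of the gene from GRCm38, with CpG dinucleotides in capitals. The *Fzd7* stretch is chr1:59481944-59482143 (plus strand, with 280 bp between its end and the annotated start), the *Fzd9* stretch chr5:135251231-135251430 (minus strand) and the *Fzd3* stretch chr14:65262464-65262663 (minus strand), the last pair ending at the base before the start.
Fzd7: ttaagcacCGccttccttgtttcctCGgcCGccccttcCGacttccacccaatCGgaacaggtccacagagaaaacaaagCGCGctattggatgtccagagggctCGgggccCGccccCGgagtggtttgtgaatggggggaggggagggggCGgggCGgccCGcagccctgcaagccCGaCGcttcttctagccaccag
Fzd9: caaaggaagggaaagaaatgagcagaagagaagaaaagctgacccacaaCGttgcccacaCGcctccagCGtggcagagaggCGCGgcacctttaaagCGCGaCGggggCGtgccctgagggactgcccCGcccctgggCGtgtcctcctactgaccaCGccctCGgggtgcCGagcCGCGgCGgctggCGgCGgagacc
Fzd3: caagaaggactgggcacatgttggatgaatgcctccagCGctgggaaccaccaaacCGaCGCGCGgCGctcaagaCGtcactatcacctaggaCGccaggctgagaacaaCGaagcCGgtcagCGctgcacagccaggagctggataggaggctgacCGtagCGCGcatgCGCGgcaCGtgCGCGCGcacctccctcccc
These 200 bp hold 15, 19 and 20 CpG dinucleotides. Over 500 bp on either side of the start, the CpG observed to expected ratio had a median of 0.864 at the 7 Frizzled promoters with peaks in all lists, 0.738 at the 23 genes with 1 to 5 lists and 0.445 at the 7 genes with none. The medians of all protein-coding genes followed the same order, with 0.735, 0.615 and 0.182. *Wnt7a* stood out from its group with a ratio of 0.813 and no promoter peak in any of the 8 lists.

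Wnt ligand promoters carried sparser peaks. *Wnt6* and *Wnt16* had the broadest support, in 5 of 6 lists each. The *Wnt6* site had 1.16, 1.05 and 1.29 FPM in the PBRM1 lists and 2.14 and 2.59 in BRG1 replicates 1 and 3, with no call in BRG1 replicate 2. The value in BRG1 replicate 3 was the highest of any promoter peak among the 37 genes. The site was compact and lay inside the gene, in an intron of *Wnt6* (chr1:74773229-74773544 in the pooled BRG1 list). The tallest summit of each list was 1411 to 1442 bp downstream of the start. Peak lengths there were 193 to 397 bp in the replicate lists, and fold enrichment was 4.86 to 7.98, above the range of the *Fzd7* promoter. At *Wnt16* the pileup was 0.758 and 1.16 FPM in PBRM1 replicates 1 and 2 and 0.818, 0.770 and 1.13 in the BRG1 lists, with most summits in a coding exon of the gene within 82 bp of an annotated start.

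Other ligands had peaks in 1 to 4 lists. *Wnt4*, which acts in Müllerian duct formation, had a peak in all 3 PBRM1 lists (0.758, 0.717 and 0.625 FPM) and in 1 BRG1 list (1.01). *Wnt3a*, the commonly used canonical ligand, had 2 PBRM1 lists (0.772 and 0.750) and no BRG1 list. These were the only members with at least 2 more PBRM1 than BRG1 lists, against 1.02% of all protein-coding genes. The opposite pattern, at least 2 more BRG1 lists, was seen at *Wnt9b*, *Wnt10a* and *Sfrp2*, against 4.3% of all protein-coding genes. *Wnt9b* had 0.692 and 0.490 FPM in BRG1 replicates 1 and 2 and no PBRM1 list. *Wnt10a* had 0.808 in PBRM1 replicate 1 and 0.944, 1.19 and 0.931 in the BRG1 lists, at an intronic site 1334 to 1432 bp downstream of an annotated start. Pooling removed part of these contrasts. In the pooled lists *Wnt3a* had a BRG1 peak of 0.597 FPM, and *Wnt10a* and *Sfrp2* had PBRM1 peaks of 0.404 and 0.598 FPM. *Wnt4* had pooled peaks of 0.630 FPM for PBRM1 and 0.907 FPM for BRG1. *Wnt9b* had no peak in the pooled PBRM1 list.

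*Wnt5a*, a noncanonical ligand expressed widely in mesenchyme, had a promoter peak in only 1 list of each antibody, yet its pooled BRG1 peak, at 1.70 FPM, was the second tallest among the ligands after *Wnt6* at 2.03. The local background there was 6.28 times the genome-wide level in the pooled BRG1 list, against a median of 3.10 over promoter peaks of protein-coding genes, and the fold enrichment was 3.38 against a median of 5.49. *Wnt9a* was alike in that list, with a background of 5.83 times and a fold enrichment of 2.74. *Wnt2* and *Wnt5b* had 2 lists of each antibody, but the *Wnt5b* peaks were not all at one site. The *Wnt5b* summit of PBRM1 replicate 1 (chr6:119467747) was at another annotated start than the rest (119448915 to 119449365). At *Wnt9a* the PBRM1 summit lay 611 bp upstream of a start and the BRG1 summits 972 and 1053 bp downstream. At *Wnt11* the PBRM1 and BRG1 summits (chr7:98838068 and 98834959) were also apart. Only the tallest summit of each list is compared here, and some lists held further peaks at *Wnt5b*, *Wnt9a* and *Wnt11*. The tallest *Wnt2* summits lay 1104 to 1306 bp upstream of its start in the replicate lists. BRG1 replicates 1 and 3 each held another *Wnt2* summit within 1 kb of the start. *Wnt11*, *Wnt8b*, *Wnt1*, *Wnt3* and *Wnt2b* had 1 to 3 lists at 0.417 to 1.13 FPM. Among the ligands, *Wnt3a*, *Wnt6*, *Wnt8b* and *Wnt10a* had replicate promoter peaks only between 1 and 2 kb from a start.

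**Figure D4:**
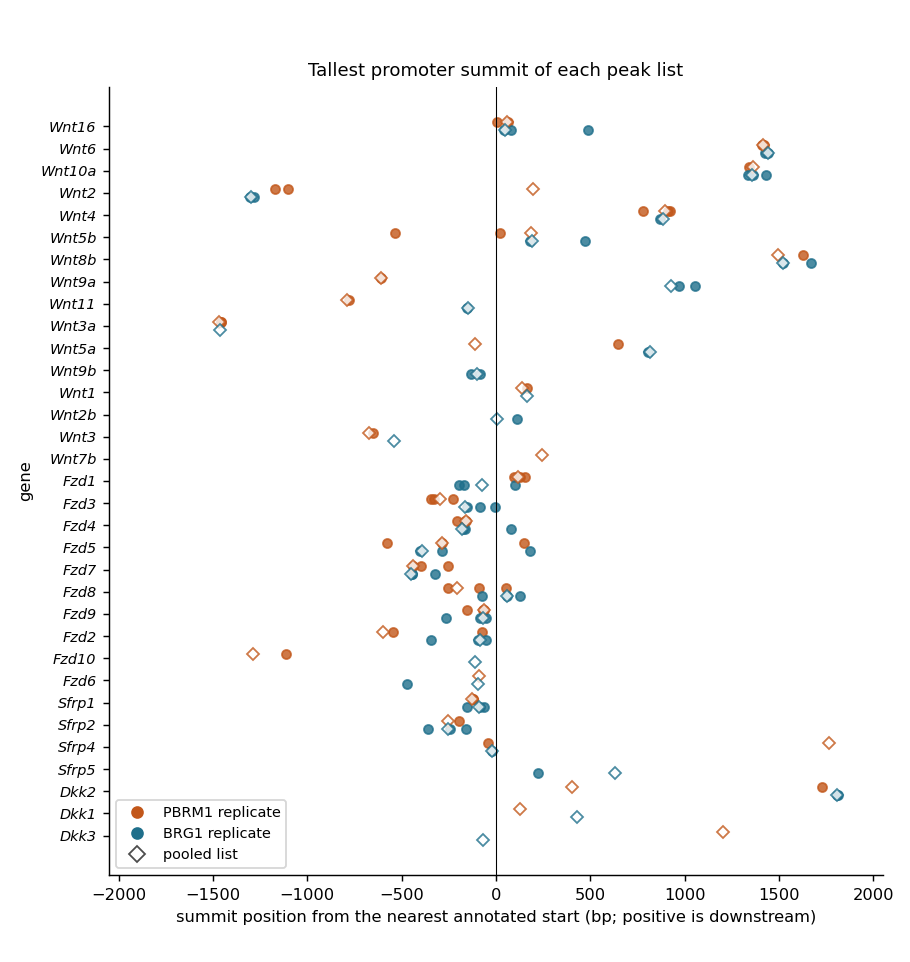
For each gene with a promoter peak in any list (y axis), points give the position of the tallest promoter summit of each list relative to the nearest annotated start (x axis, bp, positive downstream), PBRM1 in orange and BRG1 in blue, with diamonds for pooled lists. Frizzled summits gather within 600 bp of the start in the genes with 6 lists, while *Wnt6*, *Wnt10a* and *Dkk2* have theirs more than 1 kb inside the gene, except the pooled PBRM1 summit of *Dkk2*, 405 bp from the start.

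The secreted inhibitors had weak and uneven peaks. *Sfrp1* had 0.707 and 0.792 FPM in PBRM1 replicates 1 and 3 and 1.07, 0.980 and 0.865 in the BRG1 lists. Its tallest summits were 61 to 156 bp upstream of its start. *Sfrp2* had 0.657 in PBRM1 replicate 1 and 1.32, 1.05 and 0.865 in the BRG1 lists. *Sfrp4* had a peak in replicate 1 of each antibody (0.707 and 1.20), and *Sfrp5* only in BRG1 replicate 1 (0.629). PBRM1 replicate 2 held no promoter peak at any of the 4 sFRP or 4 Dickkopf genes. Of the Dickkopf genes, *Dkk2* alone had replicate peaks, in PBRM1 replicate 1 (0.758) and BRG1 replicates 2 and 3 (0.980 and 0.732), in an intron 1729 to 1813 bp downstream of the start. *Dkk3*, a divergent member of the family, had no replicate peak but a pooled BRG1 peak of 1.13 FPM, and *Dkk1* had pooled peaks of 0.275 (PBRM1) and 0.310 (BRG1) FPM. Of the 7 genes without a replicate peak, *Wnt7b* had a pooled PBRM1 peak of 0.275 FPM, and *Wnt7a*, *Wnt8a*, *Wnt10b* and *Dkk4* had no promoter peak in either pooled list. In all, 30 members had a promoter peak in the pooled PBRM1 list, against 65.4% of all protein-coding genes, and 32 in the pooled BRG1 list, against 67.3%.

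The rest of the pathway was counted from a list of 53 other genes. A promoter peak in all 6 lists was present at 22 of them (41.5%), close to the 41.4% of all protein-coding genes, and the counts varied with position in the pathway. The genes for ligand secretion, *Porcn* and *Wls*, both had such peaks, as did 7 of 9 cytoplasmic transducers, 4 of 8 nuclear factors, 4 of 9 genes of the R-spondin axis, 3 of 7 polarity genes and 1 of 3 feedback targets (*Axin2*). None of 6 co-receptors and alternative receptors and 1 of 9 other secreted inhibitors (*Wif1*) had them. *Rspo4*, *Sost*, *Sostdc1*, *Kremen2* and *Dkkl1* had a promoter peak in no list. At least 2 more BRG1 than PBRM1 lists held a peak at *Ror2*, *Rspo3*, *Frzb*, *Dvl3*, *Pygo1*, *Nkd2*, *Vangl1*, *Prickle1* and *Celsr1*, 9 of the 53 against 4.3% of all protein-coding genes, and the reverse held at *Tcf7*, 1 of the 53 against 1.02%. These are counts, and the groups were not tested against each other.

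Peaks away from promoters were sought in the gene bodies and 20 kb on either side. Merging the 6 replicate lists gave 82959 regions, of which 147 touched the window of a member. Windows held a median of 5 regions, against 3 over all protein-coding genes, with a median length of 53.4 kb against 57.4 kb. *Wnt5b* had the most with 12, and *Wnt7a*, in 87.4 kb, had none. Of the 147 regions, 21 (14.3%) were shared by all 6 lists and 69 (46.9%) came from 1 list, against 15.5% and 47.0% of all regions. A region with all 6 lists was present in 20 of the 37 windows, against 58.6% of all windows. Of the 21 regions, 7 were the Frizzled promoters, 5 were promoters of other genes and 9 were distal, with every summit over 2 kb from any annotated start. The other promoters were those of *Fbxl14* within *Wnt5b*, *Arf1* near *Wnt3a*, *Arf3* near *Wnt10b*, *Epdr1* near *Sfrp4* and *Gm26771* near *Sfrp2*. The *Fbxl14* region, in an intron of *Wnt5b*, was the tallest of the 21 with a mean of 2.01 FPM over the 6 libraries.

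The 9 distal regions lay in the windows of 8 genes, all of them Wnt ligands, against 14.1% of all windows with such a region. *Wnt6* and *Wnt10a* are adjacent and share 1 of them. The tallest was 16.9 kb upstream of *Wnt7b*, a ligand without a replicate promoter peak, and had 1.31, 1.43 and 1.08 FPM for PBRM1 and 2.08, 1.75 and 1.86 for BRG1. Another was 58.8 kb downstream of the *Wnt7b* start, past the end of the gene, with 0.960, 0.828 and 0.709 and then 1.26, 0.840 and 1.60. The upstream site was separate between antibodies and the downstream site was not. In the *Wnt10a* locus, a site 25.6 kb downstream of the start had 1.67, 1.27 and 0.959 for PBRM1 and 2.14, 1.89 and 1.13 for BRG1, which overlapped. The site shared with the *Wnt6* window was in a coding exon of *Wnt10a*, 11.9 kb downstream of its start, and had 1.01, 1.16 and 0.875 for PBRM1 and 1.82, 2.17 and 1.53 for BRG1, without overlap.

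The remaining 5 distal sites were intergenic. The site 7.51 kb upstream of *Wnt16* had 1.16, 1.10 and 1.17 FPM for PBRM1 and 1.45, 2.17 and 1.46 for BRG1. The site 19.9 kb upstream of *Wnt11*, a ligand of the polarity branch, had 0.909, 1.21 and 0.917 and then 1.57, 1.68 and 1.66. Both were separate between antibodies, as was the site 6.13 kb upstream of *Wnt2b*, with 0.909, 0.938 and 0.709 for PBRM1 and 1.57, 1.68 and 1.66 for BRG1. The site 39.7 kb downstream of the *Wnt9a* start had 1.11, 1.43 and 0.917 for PBRM1 and 1.13, 1.40 and 1.40 for BRG1, the only one of the 9 where the BRG1 range lay inside the PBRM1 range. The site 51.1 kb downstream of the *Wnt2* start had 1.06, 0.828 and 0.834 and then 1.13, 1.12 and 1.13, close together but without overlap. The 9 distal regions had a median height of 1.33 FPM over the 6 libraries, against 1.14 for all 4450 distal regions with a peak in every list.

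Sequence at 3 of the distal sites is shown because they hold matches to the motifs searched. Each is 300 bp around the tallest summit on the plus strand of GRCm38: chr15:85599252-85599551 upstream of *Wnt7b*, chr3:104967902-104968201 upstream of *Wnt2b* and chr11:59346473-59346772 downstream of *Wnt9a*. Capitals mark TGANTCA, the site of AP-1 factors, or GGAATG, the core of TEAD sites, on either strand.
Wnt7b: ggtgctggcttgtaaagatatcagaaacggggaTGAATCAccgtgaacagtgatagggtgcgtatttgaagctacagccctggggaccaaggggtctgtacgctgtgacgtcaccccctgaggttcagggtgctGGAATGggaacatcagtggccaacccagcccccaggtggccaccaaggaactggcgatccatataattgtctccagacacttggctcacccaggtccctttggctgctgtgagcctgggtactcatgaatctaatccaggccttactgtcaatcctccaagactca
Wnt2b: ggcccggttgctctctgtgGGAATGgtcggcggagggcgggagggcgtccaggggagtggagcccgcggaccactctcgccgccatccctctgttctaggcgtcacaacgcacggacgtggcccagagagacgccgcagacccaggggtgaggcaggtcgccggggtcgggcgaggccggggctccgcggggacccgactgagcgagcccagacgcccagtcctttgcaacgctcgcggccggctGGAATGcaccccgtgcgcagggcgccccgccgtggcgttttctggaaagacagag
Wnt9a: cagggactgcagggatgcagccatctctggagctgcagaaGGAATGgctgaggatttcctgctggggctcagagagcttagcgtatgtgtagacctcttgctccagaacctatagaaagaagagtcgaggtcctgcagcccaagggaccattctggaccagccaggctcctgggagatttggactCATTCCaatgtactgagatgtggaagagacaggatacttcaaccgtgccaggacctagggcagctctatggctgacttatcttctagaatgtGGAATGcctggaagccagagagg
The *Wnt7b* stretch holds 1 AP-1 and 1 TEAD match, *Wnt2b* 2 TEAD and *Wnt9a* 3 TEAD matches. The *Wnt2b* stretch is also CpG-rich, with 35 CpG dinucleotides and 72.0% G and C, whereas the other stretches hold 6 and 3. Over windows of this length, 31.9% of all distal regions held an AP-1 match and 25.6% a TEAD match. Within 250 bp of the summit, 2 of the 9 distal sites held an AP-1 match against 53.4% of all 4450 distal regions, 4 held a TEAD match against 40.6%, and none held the TCF/LEF core (CTTTGAA or CTTTGAT, the site of the nuclear effectors of Wnt signaling; 17.4%) or a CArG box (the site of SRF, a regulator of smooth muscle genes; 3.87%). A match or its lack describes these letters only, and 9 sites give a coarse share.

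BRG1 and PBRM1 levels were compared region by region with limma over all 12830 regions with a peak in every list. After centring, 602 regions (4.69%) passed an adjusted p of 0.05, 314 higher with BRG1 (2.45%) and 288 higher with PBRM1 (2.24%). None of the 21 member regions did, and 2 had an unadjusted p under 0.05, against 21.6% of all regions. The largest difference was at the site upstream of *Wnt2b*, 0.49 ± 0.20 higher with BRG1 (log2, SE; limma, adjusted p = 0.134), followed by the *Wnt10a* exon site with 0.39 ± 0.19 (limma, adjusted p = 0.228). The lowest was at the *Wnt9a* site, -0.27 ± 0.20 (limma, adjusted p = 0.461). Of the 21 regions, 17 had a positive and 4 a negative difference, with a median of 0.12 against 0.02 over all regions.

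**Figure D5:**
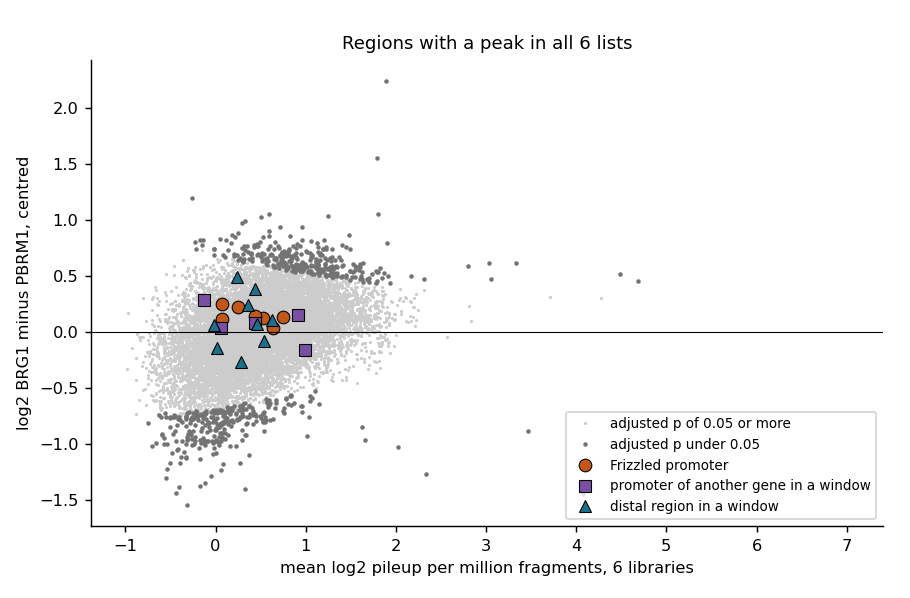
Each point is a merged region shared by all 6 lists, by its mean log2 FPM (x axis) and its centred log2 difference BRG1 minus PBRM1 (y axis), dark grey where the limma adjusted p was under 0.05. The 21 regions in member windows, in colour, lie between -0.27 and 0.49 and none is among the 602 called.

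Without centring, 17 of the 21 regions were higher with BRG1 at an adjusted p under 0.05 (limma), against 52.9% of all regions, and the values of the antibodies did not overlap at 15 of the 21, against 57.6%. The median uncentred difference was 0.59 at the member regions and 0.49 over all regions. Over all regions, 6793 were then higher with BRG1 and 53 with PBRM1. Depth moved with antibody, from 14284532 to 15897724 fragments in BRG1 libraries and from 18126049 to 23992352 in PBRM1 libraries, and its part in this gap was not tested. No measure of the scale between antibodies was used here, so a stronger signal and a different scale cannot be told apart. With 3 libraries per antibody the standard error of a member's log2 difference was 0.17 to 0.22.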

How the data were processed

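ChIC-Seq peak lists were used for 3 PBRM1 and 3 BRG1 libraries, with 1 list for each library and 1 for each antibody called on its pooled replicates. Per the labels, the authors used cutadapt, Bowtie2 and MACS2 on GRCm38.p5. Per the file headers, MACS 2.2.7.1 called narrow peaks on paired-end fragments, keeping duplicates at that step, with no control file, an effective genome size of 2300000000 bp, a q cutoff of 0.05 and a local background over 10 kb. The deposited pileup is the signal (coverage by fragments) at a summit, the deposited fold enrichment is its ratio to the local background, and the deposited q-value is given as −log10 q. Other deposited columns are positions and lengths in bp. With no control in the calling, cutting in open chromatin regardless of antibody may enter every list. The paper supplied with the series describes other cells and served for style only.

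Pileup was divided by the header's fragment total and multiplied by 1000000 (FPM). The local background was recovered as (pileup + 1) divided by fold enrichment, minus 1, and set over the genome-wide background of the library. Genes and starts came from GENCODE M21 and sequence from GRCm38.p6, whose chromosomes have the same coordinates; no peak reached beyond a chromosome end. Peaks sharing 1 bp were joined into regions. Those present in every replicate list were tested with limma 3.58.1 (R 4.3.3; log2 FPM with no pseudocount, centred on each library's median, trend, Benjamini-Hochberg over all regions, threshold 0.05), which was tested on simulated data. Counts per library were compared by two-sided exact permutation (scipy 1.17.1). Python 3.11.15, pandas 2.3.3 and pysam 0.24.0 were used.

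Genes were named by rule: values in every library for members with 6 lists, and by name all with no list or with support differing by 2 or more lists; values of other members and the pathway and marker lists are given besides. The *Wnt6*, *Wnt16*, *Fzd2* and *Wnt5a* values were singled out after they were seen. The members and lists were chosen with earlier results of these data known. Deviations of same-numbered libraries correlated at 6.2e-06, 0.0037 and -0.029. The libraries were therefore treated as unpaired, though this does not settle whether same-numbered libraries came from one preparation. Alternatives changed the peak threshold, number of peaks, promoter and window definitions, scaling, merging, replicates and block.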

Additional observations from a re-analysis of the deposited data

How the results depend on the processing

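The number of Frizzled genes with full support depended on the peak threshold. All 7 genes with 6 lists were Frizzled with a 1 kb promoter or with the gene start only. The count was 6 with equal numbers of peaks. With peaks of −log10 q of at least 5 only 2 genes had 6 lists, *Fzd1* and *Fzd4*. These were 2 of the 10 Frizzled genes, a share below the 27.0% of all protein-coding genes. At that threshold 3 distal regions were left. With interval overlap the count was 8, since *Wnt6* entered through another peak in BRG1 replicate 2. With 1 library left out it was 7 to 8. The gene that entered was *Fzd2* without PBRM1 replicate 1 and *Sfrp1* without PBRM1 replicate 2. It was *Wnt16* without PBRM1 replicate 3 and *Wnt6* without BRG1 replicate 2. The difference in genes per library stayed positive in every alternative, from 0.50 to 4.5 with 1 library left out. Distal regions numbered 4 with flanks of 10 kb and 13 with 50 kb. The AP-1 share of 22.2% became 0% within 100 bp of the summit and 66.7% of the 3 regions at the stricter threshold.

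The 602 regions called over the genome became 258 at the stricter threshold, 6846 without centring, 103 on fold enrichment and 952 with a pseudocount of 0.5, and 231 to 650 with 1 library left out. They were 366 without PBRM1 replicate 2, 382 without PBRM1 replicate 3, 362 without BRG1 replicate 1 and 231 without BRG1 replicate 3. The cause was not tested. None of the members' regions was called except 17 without centring and 1 on fold enrichment, the *Wnt2* site (0.71, limma adjusted p = 0.0369). Replicate numbers shared no deviations. With the replicate block, 682 regions and 0 member regions were called, and the difference in genes per library was 2.33 (exact paired permutation test, p = 0.5, smallest possible 0.25).

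The direction of single log2 differences, none of them called after centring, was not stable. Without centring it turned positive at *Fbxl14* (0.31), *Wnt10a* (0.39), *Wnt9a* (0.20) and *Wnt2* (0.32). Leaving out the centring raises every difference by the same amount, so these turns tell nothing about the single regions. They are among the changes of direction counted below. On fold enrichment the *Wnt2* site turned from -0.14 to 0.71, the only change of direction that was called, and the value turned negative at *Fzd4* (-0.018), *Fzd7* (-0.12), *Fzd1* (-0.00073), *Fzd5* (-0.11), *Fzd8* (-0.051), *Fzd9* (-0.052), *Arf3* (-0.23), *Epdr1* (-0.021), *Wnt11* (-0.11) and both *Wnt7b* sites (-0.058 upstream and -0.34 downstream). With 1 library left out, ranges that crossed 0 were -0.00031 to 0.31 at *Arf1*, -0.10 to 0.16 at *Fzd7*, -0.30 to 0.24 at *Wnt10a*, -0.11 to 0.20 at *Wnt16*, -0.012 to 0.27 at *Fzd3*, -0.14 to 0.19 at *Epdr1* and -0.12 to 0.32 at the downstream *Wnt7b* site. Of 209 single-region values under the alternatives, 165 kept direction and call, 17 passed the threshold in the same direction and 27 changed direction, the *Wnt2* site on fold enrichment also passing the threshold.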
